A study of Drosophila melanogaster with 35 samples.

Results

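HP3 and HP1 are chromatin proteins of Drosophila, and their binding was set against each other in 7 of the 35 arrays of this series. HP1 holds a chromodomain that binds methylated histone H3 and is a major component of heterochromatin. Heterochromatin is the condensed, repeat-rich chromatin around centromeres and on chromosome 4. HP3 is the product of Lhr, a gene known from hybrid lethality between Drosophila species, and was chosen for the study as an interaction partner in a protein interaction screen. Su(var)3-9 is a histone H3 methyltransferase that makes the mark HP1 binds. HP1 is also found at genes along the chromosome arms.

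Binding was measured by DamID in Kc167 cells, a line of embryonic origin. In DamID a protein is fused to a bacterial adenine methyltransferase (Dam), the DNA methylated near its binding sites is isolated, and the signal is divided by that of cells with Dam alone. The 3 HP3 arrays (replicates 1, 3 and 4) came from untreated cells transfected with Dam fused to HP3, and the 4 HP1 arrays (replicates 1 to 4) from untreated cells transfected with Dam fused to HP1. Separate HP3 arrays were made after knock-down of HP1 (3 arrays) and of white (3 arrays), an eye pigment gene that served as the knock-down control. All groups share the single cell line and a transfected plasmid, and the labels do not say whether replicates were separate cultures. The p-values therefore reflect array-to-array spread, part of which may be technical. Values are deposited log ratios of fusion over Dam, taken as log2, and a level of 0 is that of the median probe on an array. A difference between HP3 and HP1 is thus one of ratios, and does not compare amounts of bound protein.

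The array labelled HP3 replicate 2 was left out because it correlated with none of the 34 other arrays (r from -0.07 to 0.09), and it lacked the signal of its own plasmid at Lhr (0.09). On the 3 HP3 arrays used, the Lhr probe read 5.34, 3.52 and 4.22, against no more than 0.24 on any of 25 arrays made without the HP3 fusion. The probe of HP1's own gene read 2.86 to 4.46 on the HP1 arrays, and its highest value elsewhere was 1.63, on HP3 replicate 1. These probes report plasmid as well as chromatin and were left out, which with a filter on missing values left 9927 of 9993 probes. Correlations between arrays, given as a description over probes, ranged from 0.51 to 0.75 within HP3, from 0.47 to 0.74 within HP1 and from 0.19 to 0.67 between HP3 and HP1. HP3 replicate 1 had r = 0.65 with HP1 replicate 3, above its 0.54 and 0.51 with the other HP3 arrays. The spread of the arrays differed too, with a 99th percentile of 1.62 to 2.10 on HP3 arrays and 2.10 to 3.49 on HP1 arrays.

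With arrays centred only, most genes bound by HP3 were also bound by HP1, while HP1 bound many that HP3 did not. Of the probes tested, 492 (4.96%) lay above 0 for HP3 and 884 (8.91%) for HP1 in limma at a Benjamini-Hochberg adjusted p under 0.05, and 384 probes lay above 0 for both, which is 78.0% of the HP3-bound and 43.4% of the HP1-bound probes. Over all probes the fitted HP3 and HP1 means had r = 0.69, with a slope of 0.56 for HP3 on HP1. HP3 was higher than HP1 at 49 probes (0.494% of those tested) and lower at 188 (1.89%). Of the probes above 0 for HP1 and not for HP3, only 101 were among the 188. At the rest a difference between the proteins was not shown. HP3 and HP1 arrays did not overlap at 411 probes with HP3 higher (4.14%) and at 682 with HP3 lower (6.87%), and 47 of the 49 and 157 of the 188 were among these.

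These counts draw their error from all 33 arrays of the fit. With the 7 HP3 and HP1 arrays alone, limma called no probe, with a smallest adjusted p of 0.06, while 564 probes were higher and 791 lower at an unadjusted p under 0.05. All 237 called probes kept their sign there and had an unadjusted p under 0.05. They were called from the differences on these same arrays, so this gives the calls no separate support. The split also followed the scaling. Higher probes made up 20.7% of the calls with arrays centred only, 41.3% (239 higher, 339 lower) with arrays scaled to the same median absolute deviation, and 39.9% (77 higher, 116 lower) with arrays scaled to the same 99th percentile. Both scalings kept 45 of the 49 higher and 73 of the 188 lower calls. The numbers of probes above 0 followed the scaling as well. They were 1104 for HP3 and 1118 for HP1 with the same median absolute deviation. With the same 99th percentile they were 1025 for HP3 and 772 for HP1, so that HP1 no longer had more.

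**Figure D1:**
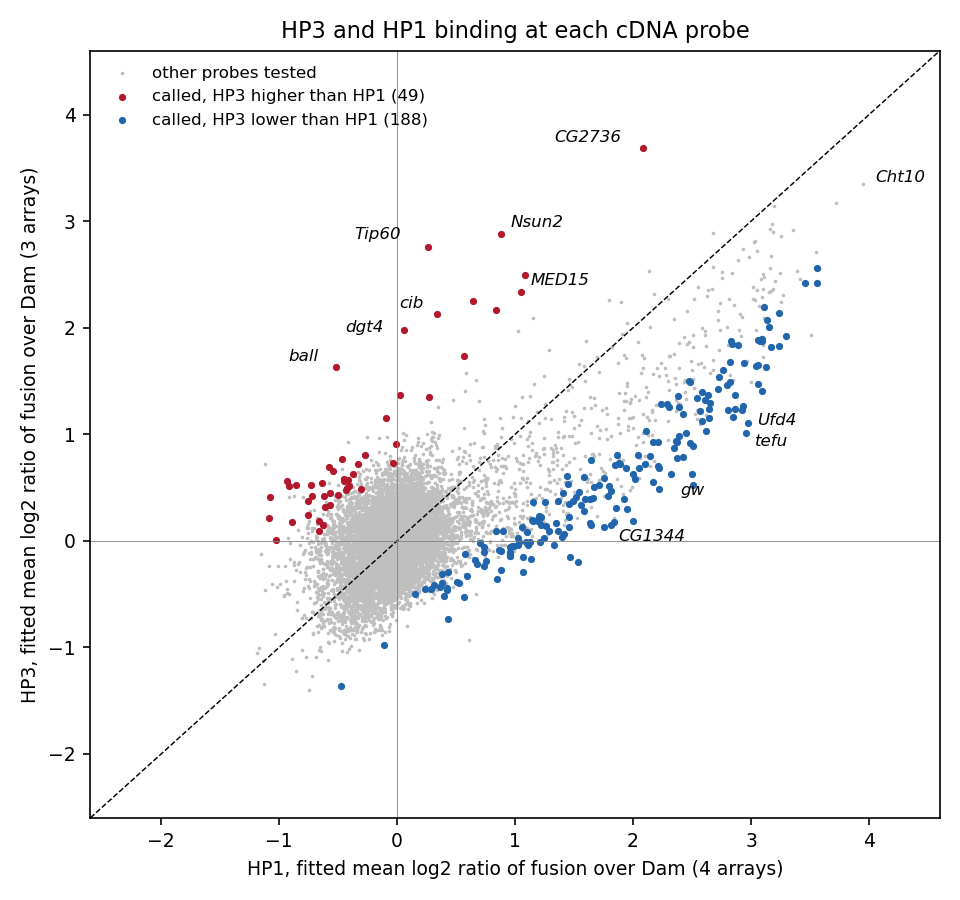
Each point is a cDNA probe, with the fitted mean log2 ratio of fusion over Dam for HP1 on the horizontal axis and for HP3 on the vertical axis, and the dashed line marks equal levels. The 49 red probes (HP3 higher) split between a few strongly HP3-bound genes and a group near 0 for HP3, and the 188 blue probes (HP3 lower) lie mostly at HP1-bound genes.

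HP3 was higher than HP1 at a run of 4 adjacent genes on the X chromosome, in the order cib, Nsun2, dgt4, Tip60, and the last of these had the largest difference of any named gene. Tip60 encodes a histone acetyltransferase, cib an actin-binding protein, Nsun2 an RNA cytosine methyltransferase and dgt4 a subunit of augmin, which nucleates spindle microtubules. Tip60 read 2.95, 3.23 and 2.09 on the HP3 arrays, against -0.17, -0.35, 1.00 and 0.55 on the HP1 arrays. Every HP3 array lay above every HP1 array, and the difference was 2.49 ± 0.28 (SE; limma adjusted p = 1.03e-05).

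Nsun2 read 3.37, 3.04 and 2.23 on the HP3 arrays, against 1.00, 0.68, 1.11 and 0.73 on the HP1 arrays (difference 2.00 ± 0.39 SE, limma adjusted p = 0.0056). Without HP3 replicate 1 its difference was 1.73 with an adjusted p of 0.064. For dgt4 the HP3 arrays gave 1.89, 2.67 and 1.35, against 0.28, -0.84, 0.56 and 0.23 on the HP1 arrays, and for cib they gave 2.59, 2.27 and 1.41, against 0.60, 0.25, 0.34 and 0.16. The arrays did not overlap at any of these genes, and the differences were 1.92 ± 0.32 for dgt4 and 1.79 ± 0.30 for cib (SE; limma adjusted p = 0.0017 for both).

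The genes on either side had no call. The gene before it, brn, averaged 0.11 ± 0.23 for HP3 and 0.06 ± 0.27 for HP1 (SD, n = 3 and 4). The gene after it, tyf, had 2 probes, at 1.07 ± 0.48 and 1.41 ± 0.33 for HP3 and at 0.74 ± 0.48 and 0.58 ± 0.18 for HP1, and neither was called. No other called-higher genes were neighbours: the run held 4 of the 43 placed genes with a call.

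The same HP3 protein read lower over these genes on the white knock-down arrays. Tip60 read 1.55, 2.01 and 1.21 after HP1 knock-down and 0.97, 0.94 and 0.82 after white knock-down, and cib read 1.27, 1.09 and 0.73 after HP1 knock-down and 0.57, 0.19 and 0.11 after white knock-down. Neither gene passed the limma test between the knock-downs (adjusted p = 0.18 and 0.17). On the 30 other arrays of the fit the highest level was 1.27 at cib, 1.52 at Nsun2, 1.92 at dgt4 and 2.01 at Tip60, each on an HP3 array after HP1 knock-down. The difference between untreated and knock-down HP3 arrays was not tested. HP3 replicate 2, which was left out, read -0.15 at cib, 1.57 at Nsun2, 1.09 at dgt4 and 0.15 at Tip60.

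HP4, HP5 and HP6 are other interaction partners mapped in the study as heterochromatin proteins. Tip60 averaged -0.95 ± 0.27 for Su(var)3-9 (SD, n = 3), -0.60 ± 0.23 for HP4 and -0.83 ± 0.12 for HP5 (SD, n = 4 each), and 0.12 ± 0.05 for the transcription factor Jra (SD, n = 3). At cib and dgt4 Jra was above 0, with fitted means of 0.80 and 0.85 (limma adjusted p = 0.011 and 0.013), and HP4 was above 0 at dgt4 (0.56, adjusted p = 0.031). Su(var)3-9 had fitted means of 0.02 at cib, -0.08 at Nsun2 and -0.12 at dgt4, and none of these passed.

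**Figure D2:**
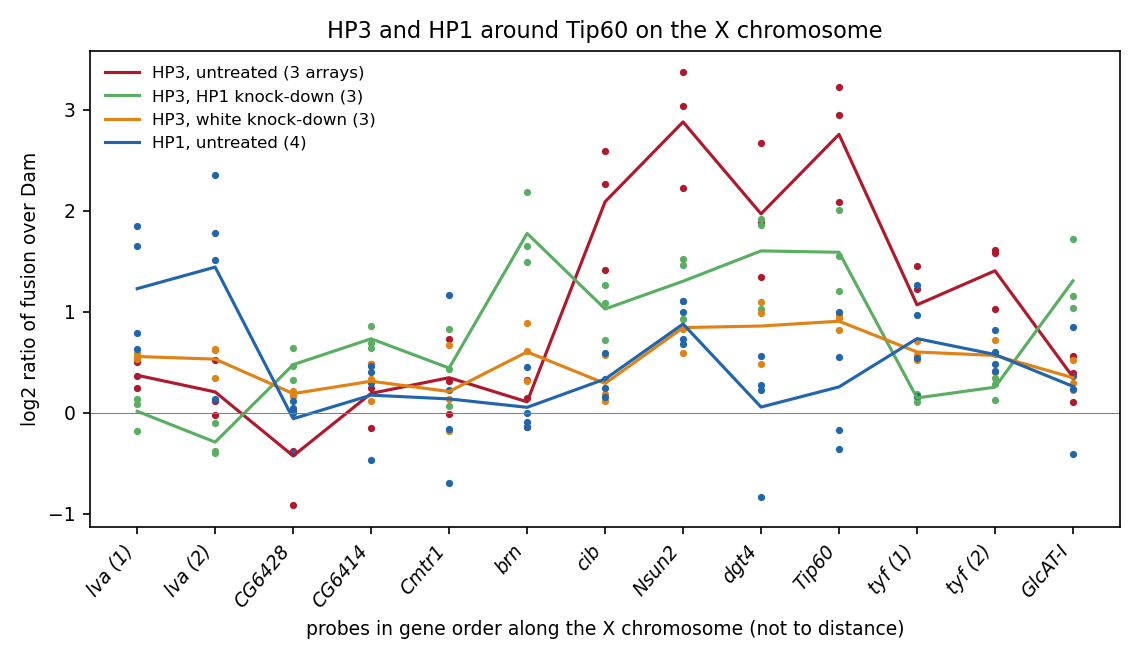
Probes are in gene order along the X chromosome, each dot is an array, and lines join the means of untreated HP3 (3 arrays), HP3 after HP1 knock-down (3), HP3 after white knock-down (3) and untreated HP1 (4), as log2 ratios of fusion over Dam. Untreated HP3 lies above HP1 on every array from cib to Tip60, and the mean of HP3 after HP1 knock-down lies between the untreated HP3 and HP1 means at these 4 genes.

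With the X chromosome run included, 2 kinds of probe made up the HP3-higher calls. The levels against 0 that divide them come from the same arrays as the calls. At 21 of the 49 probes HP3 itself was above 0, and HP1 was not above 0 at 14 of them. At the other 28 HP3 was not above 0, and at 20 of these HP1 was below 0 (3.73% of all probes were), so that the gap to HP1 was one between a level near that of the median probe and one below it. The gene ball, which encodes a histone kinase, was of the first kind: HP3 read 0.93, 1.85 and 2.33, against -0.54, -0.82, -0.52 and -0.19 for HP1 (difference 2.15 ± 0.37 SE, limma adjusted p = 0.0019). It was higher on every HP3 array than on any HP1 array. Its fitted HP3 level was 1.64 in untreated cells, 1.09 after HP1 knock-down and 1.11 after white knock-down. The difference between untreated and knock-down arrays was not tested.

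At CG2736, on chromosome arm 2R, both proteins were above 0, and the ratio over Dam was higher for HP3. HP3 read 3.73, 3.67 and 3.68, against 2.57, 2.01, 1.81 and 1.94 for HP1 (difference 1.60 ± 0.30 SE, limma adjusted p = 0.0043). Its HP3 level was 3.57 after HP1 knock-down and 3.78 after white knock-down, and the change did not pass (adjusted p = 0.77). MED15, a subunit of the Mediator complex, gave 2.24, 2.90 and 1.94 for HP3 and 1.30, 0.97, 0.90 and 1.02 for HP1 (difference 1.29 ± 0.24 SE, limma adjusted p = 0.0039), and Su(var)3-9 was below 0 there (-1.47).

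CG31715 read 2.38, 2.16 and 1.95 for HP3, against 1.24, 1.37, 0.55 and 0.19 for HP1. Dd, which encodes a nuclear envelope phosphatase, read 0.99, 1.47 and 1.72 for HP3, against 0.22, -0.26, 0.13 and 0.02 for HP1. At both genes the HP3 arrays lay above all HP1 arrays (differences 1.33 ± 0.29 and 1.35 ± 0.30 SE, limma adjusted p = 0.011 and 0.014). After HP1 knock-down the HP3 level at Dd was 2.70, against 1.47 after white knock-down, a rise that passed (adjusted p = 0.013).

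HP3 also rose at Cdk4 and galectin after HP1 knock-down. The cell cycle kinase gene Cdk4 was 0.92 ± 0.22 (SE) higher for HP3 than for HP1 (limma adjusted p = 0.019), and the galectin gene, for a sugar-binding protein, was 1.25 ± 0.30 higher (adjusted p = 0.019). HP3 rose by 1.16 at Cdk4 and by 1.08 at galectin when HP1 rather than white was knocked down (limma adjusted p = 0.0013 and 0.028).

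The second kind is shown by Ndg, for the basement membrane protein nidogen, and by rsh, a memory gene. Ndg read 0.69, 0.18 and 0.69 for HP3, against -0.61, 0.03, -1.18 and -1.96 for HP1, and rsh read 0.00, 0.03 and 0.58 for HP3, against -1.18, -0.17, -1.39 and -1.61. HP3 was not above 0 at either gene (limma adjusted p = 0.16 and 0.57), while HP1 was below 0 at both, with a wide spread between its arrays. CG30457 was alike, at 0.49 ± 0.09 for HP3 and -0.86 ± 0.44 for HP1 (SD, n = 3 and 4). The ribosomal protein gene RpS15 rested on few values, 0.16 and 0.47 on 2 HP3 arrays and -0.36 and -1.80 on 2 HP1 arrays.

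The origin of the cDNA clone moved with this kind of call. Clones with the prefixes RE and RH were 26 of the 49 HP3-higher probes (53.1%), 13 of the 188 HP3-lower probes (6.91%) and 27.8% of all probes tested. Their share was 42.9% of the 21 probes with HP3 above 0 and 60.7% of the other 28. The median RE clone read 0.14, 0.09 and 0.36 on the HP3 arrays, against 0.13, 0.06, -0.07 and -0.25 on the HP1 arrays. When each array was centred within clone prefixes, an alternative chosen after seeing the data, 31 probes were called higher and 22 of the 49 were kept. Cdk4 was among those kept, and galectin was not. The part of the clone libraries in these calls was otherwise not tested.

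**Figure D3:**
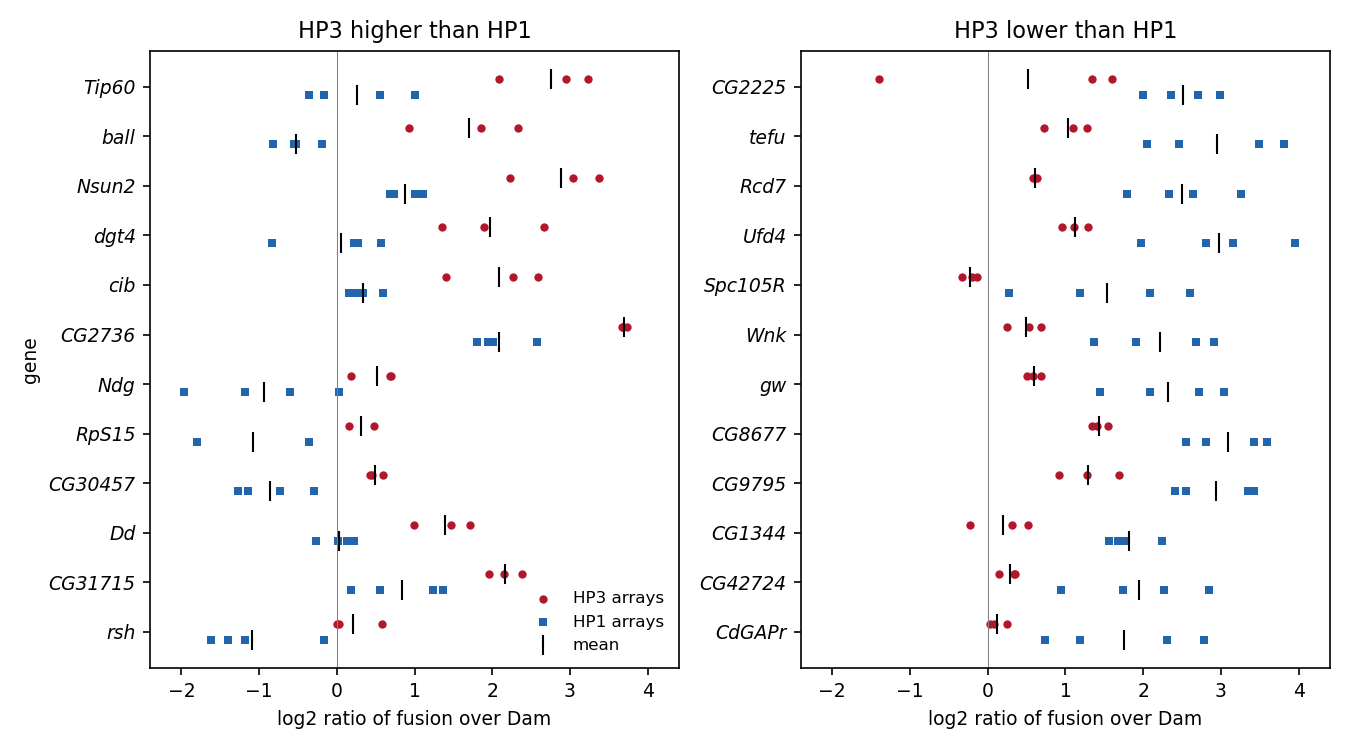
Log2 ratios of fusion over Dam on every HP3 array (red circles, 3 arrays) and HP1 array (blue squares, 4 arrays), with the mean as a bar, for the 12 genes with the largest differences in each direction among called genes whose arrays do not overlap. HP3 levels reach 3.73 at CG2736 but stay at 0.69 or less at Ndg, RpS15, CG30457 and rsh, and HP1 levels on the right run up to 3.95 at Ufd4.

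HP3 was lower than HP1 chiefly at genes bound by HP1. HP1 was above 0 at 179 of the 188 probes (8.91% of all probes were) and HP3 at 78 of them (4.96% of all). The calls and these levels come from the same arrays, so a high HP1 level was in part fixed by the choice. On the white knock-down arrays HP3 was above 0 at 101 of the 188, against 822 of all 9927. Of the 142 probes with a place on the map, 9 lay on chromosome 4, 15 among the genes nearest a centromere and 118 (83.1%) elsewhere, where 96.1% of all placed probes lie. HP3 was lower at 15% of the probes on chromosome 4, 5.56% of those nearest a centromere and 1.45% of those elsewhere. These shares followed the scaling. With the same 99th percentile, 2 of 60 probes on chromosome 4 and 4 of 270 nearest a centromere were lower, against 116 of all 9927. With the same median absolute deviation they were 2 and 14, against 339 of all. The median level of the 188 was 0.46 for HP3 and 1.77 for HP1.

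The gene tefu, which encodes the DNA damage kinase ATM, read 0.72, 1.28 and 1.10 for HP3, against 3.81, 3.49, 2.46 and 2.06 for HP1 (difference -1.95 ± 0.31 SE, limma adjusted p = 0.0013). Rcd7 read 0.61, 0.64 and 0.59 for HP3, against 2.33, 3.25, 2.64 and 1.79 for HP1 (difference -1.88 ± 0.29 SE, adjusted p = 0.0012). Every HP1 array lay above every HP3 array at both genes. The ubiquitin ligase gene Ufd4 read 1.29, 1.11 and 0.95 for HP3, against 3.16, 3.95, 2.81 and 1.98 for HP1 (difference -1.87 ± 0.37 SE, limma adjusted p = 0.0059).

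At some genes HP1 bound, while untreated HP3 did not pass the test against 0. Spc105R, for a kinetochore protein, read -0.20, -0.14 and -0.33 for HP3, against 2.09, 2.60, 1.18 and 0.27 for HP1 (difference -1.73 ± 0.35 SE, limma adjusted p = 0.0072). The kinase gene Wnk read 0.25, 0.53 and 0.69 for HP3, against 2.68, 2.91, 1.91 and 1.37 for HP1, and CdGAPr read 0.03, 0.08 and 0.25, against 2.31, 2.78, 1.19 and 0.73. The HP3 arrays lay close together at these genes, while HP1 ran lowest on replicate 4 at each of them. After white knock-down HP3 was above 0 at Wnk (fitted mean 0.96, limma adjusted p = 0.0013). It did not pass at Spc105R or CdGAPr (limma adjusted p = 0.30 and 0.45).

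Among the largest differences, CG8677, CG9795 and CG42724 averaged 1.43 ± 0.10, 1.30 ± 0.39 and 0.28 ± 0.12 for HP3, and 3.09 ± 0.50, 2.94 ± 0.53 and 1.95 ± 0.81 for HP1 (SD, n = 3 and 4). CG2225 had the largest fitted difference, -1.99 ± 0.49 (SE, limma adjusted p = 0.027), but it rested on HP3 replicate 4. It read 1.60, 1.34 and -1.40 for HP3, against 2.35, 2.71, 2.99 and 1.99 for HP1, and without HP3 replicate 4 the difference was -1.04 (adjusted p = 0.37).

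CG1344, among the genes nearest a centromere, read -0.23, 0.51 and 0.31 for HP3, against 1.77, 2.25, 1.55 and 1.68 for HP1 (difference -1.66 ± 0.24 SE, limma adjusted p = 0.00078). Su(var)3-9 was not above 0 there (-0.43), HP4 and HP5 were below 0 (-0.44 and -0.49, adjusted p = 0.025 and 0.015), and HP6 was above 0 (1.20, adjusted p = 8.12e-04). HP3 stood at 1.17 after HP1 knock-down and at 1.18 after white knock-down. HP3 read higher on each knock-down array (0.89 to 1.49) than on any untreated HP3 array, a difference that was not tested.

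Gene span differed between the called groups, as a description with no test. The median span of the annotated gene was 5.99 kb for the HP3-lower calls, 1.79 kb for the HP3-higher calls and 2.74 kb for all probes with 1 gene, while it was 5.12 kb for all HP1-bound genes. Neighbours were counted in the order of the 7571 placed genes with a tested probe, so genes without a probe may lie between them. Of the 141 placed HP3-lower genes, 36 stood in 18 pairs of such neighbours, and no run was longer than 2 genes. Examples are Rcd7 with Ltn1, CG1344 with hrm and enok with gek. The number of pairs to be met by chance was not worked out.

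The other heterochromatin proteins were above 0 at most HP3-lower probes. Su(var)3-9 was above 0 at 132 of the 188 HP3-lower probes, HP4 at 153, HP5 at 137 and HP6 at 108. The shares over all probes tested were 16.6%, 20.6%, 19.5% and 4.78%. HP1-bound probes in general shared this trait: of all 884, the same proteins were above 0 at 506, 649, 588 and 363. Su(var)3-9 was above 0 at 289 of the 384 probes bound by both HP3 and HP1. At the 21 HP3-higher probes with HP3 above 0, Su(var)3-9 was above 0 at none and below 0 at 10 (18.6% of all probes were below 0), HP4 and HP5 were above 0 at 3 each, and HP6 was above 0 at 6. Over all 49 HP3-higher probes Su(var)3-9 was above 0 at 4, HP4 at 14, HP5 at 15 and HP6 at 7. Jra was above 0 at 5 of these 21 and at 12 of the 188, against 12.4% of all probes. The median Su(var)3-9 level was -0.44 at the 21 and 1.18 at the 188, and it was 1.34 at the 299 probes bound by both HP3 and HP1 without a call. These shares rest on limma tests against 0 in each protein's own arrays, in the same fit.

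The HP3 arrays made after knock-down enter the HP3 and HP1 difference only through the pooled error and the dye term, on which the calls rest. They do not measure how far HP1 itself fell. HP3 was lower after HP1 than after white knock-down at 99 probes (0.997%) and higher at 866 (8.72%). Of the 188 HP3-lower probes, 56 fell and 1 rose, with a median change of -0.66, against -0.04 over all probes. Of the 49 HP3-higher probes, 2 fell and 10 rose, with a median change of -0.03.

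Within the HP3-lower probes most falls lay where Su(var)3-9 was bound. HP3 fell at 54 of the 132 probes with Su(var)3-9 above 0, at 2 of the 50 with Su(var)3-9 neither above nor below 0, and at none of the 6 with it below 0. These probes differ in level as well: the median HP3 level after white knock-down was 1.19 at the 132 and 0.22 at the 50, and the part of this in the counts was not tested. By place, HP3 fell at 8 of the 15 HP3-lower probes near centromeres, 2 of 9 on chromosome 4 and 32 of 118 elsewhere (27.1%). Among HP1-bound probes elsewhere that were not HP3-lower, 11 of 437 fell (2.52%), with a median HP1 level of 0.91, against 1.54 for the 118.

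At tefu, HP3 was 0.04, 0.14 and 0.47 after HP1 knock-down and 2.10, 1.58 and 1.75 after white knock-down (change -1.59, limma adjusted p = 0.0017). At Rcd7 it was -0.38, -0.75 and 0.02 after HP1 knock-down, against 1.46, 0.99 and 1.24 (change -1.60, adjusted p = 9.36e-04). The arrays of the knock-downs did not overlap at either gene. At Marf1 the fall was -1.75 (adjusted p = 1.22e-04) and at mu2, which encodes a chromosome protection factor, it was -1.60 (adjusted p = 2.20e-04). The chromosome 4 gene gw, for the microRNA silencing protein GW182, did not pass: HP3 was 1.03, 1.21 and 1.33 after HP1 knock-down and 1.20, 0.71 and 0.99 after white knock-down (change 0.22, adjusted p = 0.78).

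**Figure D4:**
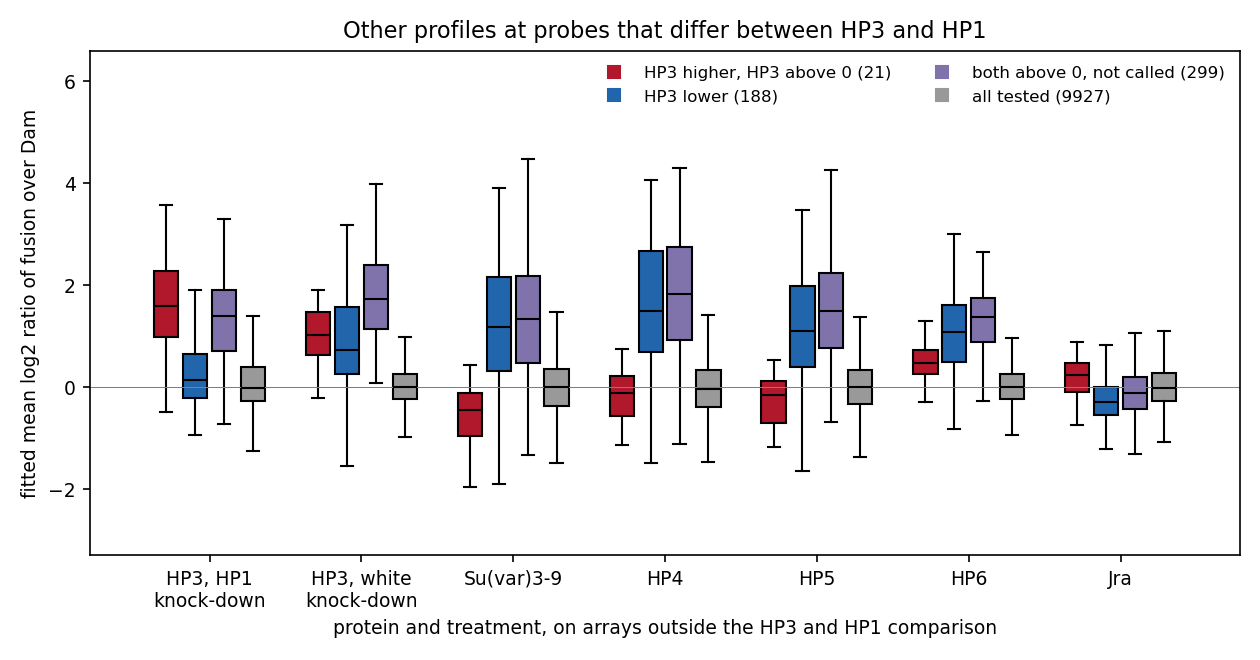
Boxes show the median and quartiles, and whiskers reach to 1.5 times the box, of fitted mean log2 ratios for HP3 after either knock-down and for 5 other proteins. The 21 HP3-higher probes (red) lie below 0 at the median for Su(var)3-9, HP4 and HP5, and the 188 HP3-lower probes (blue) lie above 0 for these proteins and near 0 for HP3 after HP1 knock-down (median 0.15).

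Over all probes tested 0.494% were higher and 1.89% lower, and the gene lists are given beside these shares. On chromosome 4, which is largely heterochromatic, HP3 was lower at 9 of 60 probes and higher at none, with a median difference of -0.66, against -0.02 over all probes. Its median level was 1.21, 1.29 and 0.81 on the HP3 arrays, against 1.99, 2.55, 1.71 and 1.62 on the HP1 arrays. The median difference was -0.36 with arrays scaled to the same median absolute deviation, and -0.07 when scaled to the same 99th percentile. Each of these scalings called 2 of the 60 probes lower. The gene gw read 0.68, 0.58 and 0.50 for HP3, against 3.04, 2.72, 1.44 and 2.09 for HP1 (difference -1.70 ± 0.32 SE, limma adjusted p = 0.0042), and it kept its call under both scalings and with each array left out. The transcription factor gene zfh2 and Gyf were lower by -1.61 ± 0.34 and -1.40 ± 0.27 (SE; adjusted p = 0.0094 and 0.0045).

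Among the 270 probes nearest a centromere, HP3 was lower at 15 (5.56%) and higher at 1 (0.37%). The median difference was -0.19, and it was 0.02 with the 99th percentile scaling, which called 4 lower and 5 higher. In a hand list of 14 probes of pericentric genes, 2 were lower and none higher, namely the helicase gene Dbp80 (-1.33 ± 0.31 SE, limma adjusted p = 0.018) and a probe of the catenin gene p120ctn (-1.13 ± 0.24 SE, adjusted p = 0.010). The median difference of this list was -0.42, and it turned to 0.05 and 0.34 under the scalings to the same median absolute deviation and 99th percentile. HP3 was above 0 at 13 of the 14 and HP1 at 12.

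Near telomeres 3 of 64 probes were higher (4.69%, against 0.494% of all), including galectin and CG6845, and none lower (median 0.16). Centring within clone prefixes called 3 higher and 1 lower, and it kept the call of CG6845 but not that of galectin, an RE clone. In region 31 of arm 2L, a known site of HP1 on the arms, 1 of 33 probes was higher (CG31715, 3.03%) and 3 were lower (9.09%, against 1.89% of all), among them Ufd4. Of 35 probes of heterochromatin factor genes, 2 were lower (5.71%), sov (-1.29 ± 0.27 SE, limma adjusted p = 0.0078) and Su(var)2-HP2 (-0.92 ± 0.21 SE, adjusted p = 0.014). Both encode HP1-associated proteins. HP3 and HP1 averaged 1.30 and 2.61 at sov, but -0.49 and 0.40 at Su(var)2-HP2, where HP3 lay below the median probe. Of 6 probes of histone acetyltransferase genes, Tip60 was higher and enok lower (-1.20 ± 0.32 SE, limma adjusted p = 0.040). The call of enok was lost under both scalings and with centring within clone prefixes, while that of Tip60 was kept.

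The ribosomal protein and oxidative phosphorylation lists had 1 to 3 calls each. Of 39 cytoplasmic ribosomal protein probes 1 was higher (2.56%, against 0.494% of all) and none lower (median difference 0.40). Of 74 mitochondrial ribosomal protein probes, mRpL43 was higher and mRpS5 lower (1.35% each; median 0.32). Of 65 oxidative phosphorylation probes, ATPsyngamma was higher (1.54%) and 2 were lower (3.08%), including ATPsynbeta (median 0.24). RE and RH clones made up 74.4%, 62.2% and 55.4% of the probes of these 3 lists, and centring within clone prefixes brought the medians to 0.18, 0.14 and 0.14. One aminoacyl-tRNA synthetase gene, SerRS, was lower among 17 probes (5.88%), by -0.74 ± 0.16 (SE, limma adjusted p = 0.0094). It averaged -0.43 for HP3 and 0.29 for HP1.

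No probe passed among Polycomb targets (18 probes), AP-1 and JNK pathway genes (16), DNA replication genes (32), cuticle and chorion genes (8), proteasome subunits (39), translation initiation factors (41) or heat shock proteins (18), with list medians between -0.16 and 0.19. The largest differences in these lists were 1.33 ± 0.39 at Hsp70Ab and -1.27 ± 0.57 at eIF4G1 (SE; limma adjusted p = 0.064 and 0.31).

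**Figure D5:**
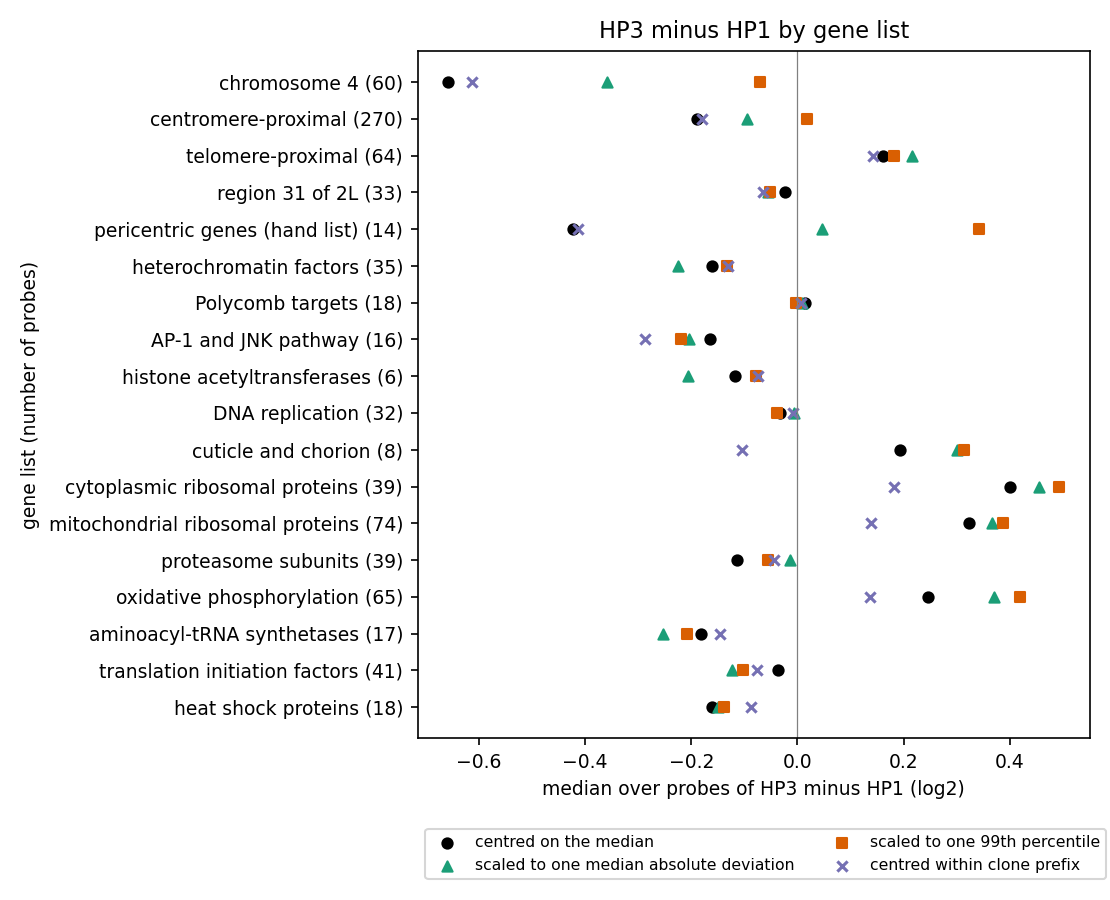
Each symbol is the median over a list's probes of HP3 minus HP1 (log2), with arrays centred on the median or under 3 other scalings or centrings, and the number of probes in brackets. Chromosome 4 lies at -0.66 with median centring and near 0 with the 99th percentile scaling, and the pericentric list changes sign, while the ribosomal and oxidative phosphorylation lists move towards 0 when clones are centred within prefixes.

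The genes with the highest mean among probes bound by both proteins, a choice that fixes their sharing, had no call between HP3 and HP1. Cht10, a chitinase gene, read 2.75, 3.58 and 3.78 for HP3, against 3.98, 4.62, 3.71 and 3.51 for HP1 (difference -0.61 ± 0.27 SE, limma adjusted p = 0.29). The arrays overlapped. A second probe of p120ctn and the stress response gene Atf6 averaged 2.94 ± 0.38 and 2.87 ± 0.49 for HP3, and 3.36 ± 0.77 and 3.26 ± 0.45 for HP1 (SD, n = 3 and 4), with differences of -0.44 ± 0.45 and -0.39 ± 0.36 (SE). CG31249 averaged 2.98 ± 0.41 for HP3 and 3.18 ± 0.51 for HP1, CG5532 averaged 3.08 ± 0.37 and 3.19 ± 0.74, and CG2519 averaged 2.50 ± 0.49 and 3.58 ± 0.54 (adjusted p = 0.15). HP3 at Cht10 and CG2519 was lower after HP1 than after white knock-down, by -0.98 and -1.85 (limma adjusted p = 0.025 and 0.0019). At CG31249 the change was -0.46 (adjusted p = 0.44).

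The calls differed in how they held when arrays were left out. With each of the 7 arrays left out in turn, both scalings, centring within clone prefixes and no dye term, 7 higher and 16 lower probes kept their call. The 7 were Tip60, ball, dgt4, cib, CG2736, MED15 and an unnamed clone, LD45876. The 16 included tefu, Rcd7, Wnk, gw, CG1344, CG42724 and CdGAPr. At the threshold, the last probe called was of CG31368 (-1.36, adjusted p = 0.049) and the first not called was of CG31675 (0.98, adjusted p = 0.051).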

How the data were processed

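DamID in Kc167 cells was read on 2-colour cDNA arrays, 35 in all. The authors deposited log2 ratios (base assumed here) of each fusion to Dam alone. The log base, the scanner, background correction and normalisation were not given in the sources used here, and signal over background is unknown. The number of arrays limits the precision. Each array was centred on its median. Probes were named through the array's gene table and a RefSeq table of the Release 6 assembly (8683 of 9993 probes had 1 gene, 297 several and 1013 none; 8539 matched RefSeq), used only for names, gene order and gene span.

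A limma (3.58.1, R 4.3.3) model with 11 group means and a dye term was fitted to 33 arrays, leaving out HP3 replicate 2 and HP6 replicate 3, which carried the HP4 plasmid signal (4.81). Residual degrees of freedom were 21, with 7.18 more from the prior. Probes needed 2 values in each group, which removed 64. Probes of the genes of HP3 (Lhr) and HP1 were left out. Tests were two-sided, adjusted by Benjamini and Hochberg, with a threshold of 0.05, and the code was tested on simulated data. Values after ± are SD between arrays, or the model's SE where written. "Above 0" and "bound" mean a group mean above 0 that passed this threshold, and "below 0" likewise.

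Genes named are the 12 most extreme called genes each way with arrays that do not overlap and a single symbol, the 6 with the highest mean among probes above 0 for both proteins, up to 3 members of each list with the largest difference, and the probes next to the threshold; others were chosen after their values were seen. The genes nearest a centromere are the 100 named genes nearest on each of 5 arms, and those near telomeres the 20 nearest. Members and lists were chosen with earlier results of these data known. Alternatives were other scalings and centrings, arrays, filters, a replicate block and leaving out each array. The replicate numbers were not used to pair the arrays in the main fit, and so few arrays cannot settle whether they do.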

Additional observations from a re-analysis of the deposited data

Results flagged for a closer look

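In each of 76 named genes the 4 HP1 arrays were checked for an array far from the others by Dixon's test, which chance passes for about 1 in 20 groups. At CG5532, HP1 replicate 4 was low, at 2.10, where the other HP1 arrays read 3.64, 3.39 and 3.64. At ova, a heterochromatin factor gene, HP1 replicate 2 was high, at 3.33, against 2.13, 2.11 and 1.88 on the others. At eIF3a and eIF3l, which encode translation initiation factors, HP1 replicate 2 was low, at -1.59 and -1.71, where the other HP1 arrays read -0.02, 0.01 and -0.26 at eIF3a and -0.21, -0.34 and -0.20 at eIF3l. The HP3 arrays read 3.31, 3.28 and 2.65 at CG5532, and none of the 4 genes was called between HP3 and HP1.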

How the results depend on the processing

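Counts moved by over 1.5 times under these settings. HP3-higher probes (49) numbered 32 with no dye term, 239 and 77 with arrays scaled to one median absolute deviation and one 99th percentile, 0 with the 7 arrays alone, 133 with a replicate block, 31 centred within clone prefixes, and 12 to 78 with 1 array left out. HP3-lower probes (188) numbered 339 and 116 under the scalings, 0 with the 7 arrays alone, 86 with the block, and 33 to 323 with 1 array left out. The extremes came without HP3 replicate 4 (12 higher, 33 lower) and without HP1 replicate 4 (78 and 323), and HP3 replicate 1 (14 and 78), HP3 replicate 3 (22 and 113), HP1 replicate 1 (31 and 82) and HP1 replicate 2 (30 and 77) also moved a count that far. HP3 above 0 (492) was 1104 and 1025 under the scalings and 271 (without HP3 replicate 1) to 596 with 1 array left out. HP1 above 0 (884) stayed within 1.5 times, at 1118 and 772 under the scalings and 714 to 988 with 1 array left out. The knock-down falls (99) were 705 with those 6 arrays alone, 582 with the block and 30 (without HP1 knock-down replicate 2) to 81 with 1 array left out, also low at 61 and 46 without HP1 knock-down replicate 1 and white knock-down replicate 1; the rises (866) were 1693, 1580 and 317 (same array) to 892, with 461 and 566 without white knock-down replicates 2 and 3. Called list members (41) were 68 when scaled to one median absolute deviation, 0 with the 7 arrays, 64 with all 35 arrays, 27 with 13 arrays of HP3 and HP1 (chosen, like clone centring, after seeing the data), and 8 to 66 with 1 array left out. CG31249 turned to 0.88 under the 99th percentile scaling (adjusted p = 0.047). The cause of these changes was not tested. Of the named genes' values under the alternatives, 1175 kept direction and side of the threshold, 38 newly passed, 166 no longer passed and 1 reversed. With all 35 arrays 47 and 270 probes were called, 27 and 166 shared. Deviations of arrays with the same replicate number had r = 0.02, -0.40 and 0.14 between HP3 and HP1 and 0.09, 0.07 and 0.23 between the knock-downs, and not every array correlated best with its own number; levels against 0 were not run with the block.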
